A study of Homo sapiens with 6 samples.

Results

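YAP1, its partner WWTR1 (TAZ), the DNA-binding factor TEAD1 and 7 genes that serve as their targets or regulators were followed in xenograft tumours of a human liver cancer line. The 10 genes were chosen by symbol: YAP1, WWTR1, TEAD1, CYR61, CTGF, ANKRD1, AMOTL2, AJUBA, LATS2 and AXL. All 10 were found, each on a single row, among 60725 rows of every table. CYR61 and CTGF are the older symbols of CCN1 and CCN2.

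The tumours were grown from MHCC97L, an established human hepatocellular carcinoma line. The study compared 3 libraries labelled Ctrl with 3 labelled rhLUM, from xenografts given recombinant human lumican, a secreted proteoglycan of the extracellular matrix. Both groups carry the same single cell line, and the sources used here give no host strain or age, dose, route or duration. Nor do the labels tie each library to a tumour of its own, so the p-values measure only the spread between these libraries, which may be technical.

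YAP and TAZ are transcriptional coactivators that the Hippo kinase cascade restrains. The kinases STK3 and STK4 (MST2 and MST1) activate LATS1 and LATS2, which phosphorylate YAP and TAZ and so keep them out of the nucleus; unphosphorylated, they bind TEAD factors on DNA and drive genes of growth, adhesion and matrix. In the liver this pathway limits organ size, and YAP activity is raised in many hepatocellular carcinomas. Transcript levels say nothing of the phosphorylation or the location of these proteins.

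TEAD factors recognise the letters GGAATG, or CATTCC on the other strand, and the promoters of the members are shown because they display where those letters lie near the start site. RefSeq promoters (GRCh38.p14, 250 bases before the start to 50 after it) matched 4 of the 10 members: YAP1, CTGF, ANKRD1 and LATS2. WWTR1, TEAD1, CYR61, AMOTL2, AJUBA and AXL were not matched. The lines below run 5′ to 3′ on the gene's strand, with TEAD letters and, in ANKRD1, an AP-1 match (TGANTCA) in capitals.
CTGF, chr6:131951323-131951622, minus strand: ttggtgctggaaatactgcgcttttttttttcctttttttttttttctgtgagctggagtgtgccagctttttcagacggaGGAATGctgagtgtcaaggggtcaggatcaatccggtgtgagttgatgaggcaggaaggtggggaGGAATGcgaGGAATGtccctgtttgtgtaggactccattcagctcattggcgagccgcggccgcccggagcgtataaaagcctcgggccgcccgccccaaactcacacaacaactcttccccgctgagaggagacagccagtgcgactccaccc
ANKRD1, chr10:90921038-90921337, minus strand: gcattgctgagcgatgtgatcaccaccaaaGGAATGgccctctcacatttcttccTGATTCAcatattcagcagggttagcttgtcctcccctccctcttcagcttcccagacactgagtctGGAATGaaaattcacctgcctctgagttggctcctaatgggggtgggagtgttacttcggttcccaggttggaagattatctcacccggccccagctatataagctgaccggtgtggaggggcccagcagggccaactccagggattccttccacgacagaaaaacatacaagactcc
YAP1, chr11:102110197-102110496, plus strand: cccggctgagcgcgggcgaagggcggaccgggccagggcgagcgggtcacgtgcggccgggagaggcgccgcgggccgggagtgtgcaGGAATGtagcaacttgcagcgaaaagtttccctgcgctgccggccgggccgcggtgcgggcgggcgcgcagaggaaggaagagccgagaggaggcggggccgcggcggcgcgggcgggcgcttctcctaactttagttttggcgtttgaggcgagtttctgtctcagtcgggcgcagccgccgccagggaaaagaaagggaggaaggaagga
LATS2, chr13:21061537-21061836, minus strand: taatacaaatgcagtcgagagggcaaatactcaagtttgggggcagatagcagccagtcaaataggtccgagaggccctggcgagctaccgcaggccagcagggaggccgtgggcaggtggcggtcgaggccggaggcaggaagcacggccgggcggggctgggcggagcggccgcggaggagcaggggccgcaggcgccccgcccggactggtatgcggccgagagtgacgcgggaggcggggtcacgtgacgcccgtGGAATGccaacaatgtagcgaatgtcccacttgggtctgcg
CTGF holds the TEAD letters 3 times, with first bases at -169, -104 and -95 from the start site. ANKRD1 holds them at -220 and -128, with the AP-1 letters at -195. YAP1 holds them once, at -162, and LATS2 once, at 10 bases into the transcript. No match overlapped another, and no CArG box was found in these 4 promoters. Of 35116 promoters of the same length, 14.0% held the TEAD letters at least once and 1.37% held them 2 or more times, while 7.71% held the AP-1 letters and 1.29% a CArG box. These matches are letters in a window and were not measured as binding.

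Values are TPM, each transcript's share of a library after division by its length, so levels of different genes can be compared within a library. In Ctrl the coactivators stood highest, WWTR1 at 50.2 ± 1.06 TPM and YAP1 at 36.9 ± 0.864 (SD, n = 3 per group here and in all such values). CTGF followed at 19.7 ± 0.555, then AJUBA and CYR61, whose libraries overlapped, TEAD1 at 8.59 ± 0.427 and AMOTL2 at 6.00 ± 0.285. LATS2, AXL and ANKRD1 were the lowest. With rhLUM, WWTR1 and YAP1 overlapped at the top, TEAD1 stood 4th in place of 6th, and CYR61 overlapped with AMOTL2 and AXL with LATS2.

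**Figure D1:**
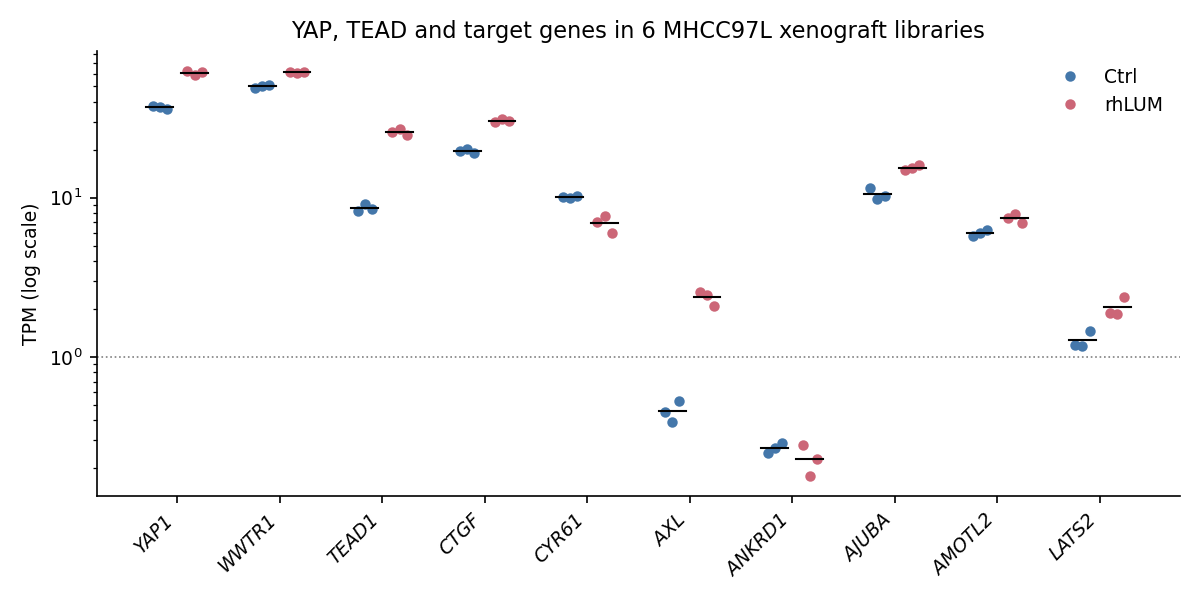
TPM of each of the 10 genes (log scale) in the 3 Ctrl libraries (blue) and the 3 rhLUM libraries (red). Points are libraries, bars are group means and the dotted line marks 1 TPM, the mean a gene needed to be tested. TEAD1 and AXL show the widest gaps between groups, CYR61 lies lower with rhLUM, and the groups of ANKRD1 overlap.

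Differences are rhLUM minus Ctrl in log2(TPM + 1), tested with limma over the 14781 genes that averaged 1 TPM or more, with Benjamini-Hochberg adjustment over all of them. A gene was called at an adjusted p under 0.05. The scale understates the change of low genes. Of the 10 members, 9 passed the filter on low values, 8 were called higher and 1, CYR61, lower. Of all tested genes 44.5% were called higher and 22.3% lower, or 66.8% in either direction, so calls are common in these libraries. The 3 Ctrl libraries did not overlap the 3 rhLUM libraries for any of those 9 members, as for 71.4% of all tested genes (47% with rhLUM higher and 24.3% with rhLUM lower). The median difference of the 9 was 0.51, against 0.16 over all tested genes; 1 of them, AXL, passed the filter only through its rhLUM libraries. In tissue of mixed cells, fewer cells of a type and less RNA per cell cannot be told apart.

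The median shift of all genes depends on scaling. Median-of-ratios scaling moved it from 0.16 to -0.017, and it gave 32.6% of genes higher and 32.5% lower. The mitochondrial share of TPM was 20.5 to 20.7% in Ctrl and 14.3 to 14.5% in rhLUM. Differences also went up with transcript length: the shortest 10% of genes had a median of -0.099 and the longest 10% of 0.47. Among the members, 6 were called higher and 1 lower with median-of-ratios scaling. A loess correction for length and GC content left 5 higher and 1 lower of 9, at a median of 0.29, while over all genes it gave 37.1% higher and 29.4% lower (66.5% called) and a median of 0.052. The share of members called is then at the background.

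YAP1, the coactivator itself (chromosome 11, 102110461 to 102233423, plus strand, GRCh38), rose with rhLUM. It was at 37.57, 37.28 and 35.95 TPM in Ctrl A, B and C and at 62.37, 58.63 and 61.11 TPM in rhLUM A, B and C. The groups did not overlap, a 1.64-fold difference of the mean TPM. The log2 difference was 0.70 (SE 0.039, 95% interval 0.61 to 0.79, limma adjusted p = 5.03e-06). It was 0.51 after median-of-ratios scaling and 0.33 after the length and GC correction, and remained called under all alternatives run (adjusted p up to 2.23e-04).

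WWTR1, which encodes TAZ (chromosome 3, 149517235 to 149736714, minus strand), rose by less. It was at 49.00, 50.55 and 51.03 TPM in Ctrl and at 61.69, 60.33 and 61.40 TPM in rhLUM, again without overlap. It differed by 0.28 on the log2 scale (SE 0.032, limma adjusted p = 2.06e-04). Its size and direction rest on the scaling: it was 0.084 after median-of-ratios scaling (adjusted p = 0.0493), 0.048 after upper quartile scaling (adjusted p = 0.214) and -0.077 after the length and GC correction (adjusted p = 0.0811), within a range of adjusted p of 1.34e-04 to 0.214 over its alternatives.

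The ratio of YAP1 to WWTR1 within a library does not depend on how libraries are scaled. It was 0.767, 0.738 and 0.705 in Ctrl A, B and C and 1.01, 0.972 and 0.995 in rhLUM A, B and C. WWTR1 thus exceeded YAP1 in each Ctrl library, and the 2 were near 1 to 1 with rhLUM. Their summed level went from 87.1 ± 0.643 to 121.8 ± 2.62 TPM.

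TEAD1, a DNA-binding partner of YAP and TAZ (chromosome 11, 12674591 to 12944483, plus strand), had the largest difference of the tested members on the log2(TPM + 1) scale; with a pseudocount of 0.1 AXL stood above it, at 2.15 against 1.58. It was at 8.26, 9.07 and 8.43 TPM in Ctrl and at 25.69, 27.07 and 24.57 TPM in rhLUM. The lowest rhLUM library stood far above the highest Ctrl library, and the mean TPM was 3.002-fold higher. On the log2 scale this was 1.48 (SE 0.059, 95% interval 1.34 to 1.62, limma adjusted p = 1.25e-06), higher than in 98.6% of tested genes. Its longest transcript, of 8477 bases, puts it among the longest 10% of genes, and the difference was 1.03 after the length and GC correction (adjusted p = 4.48e-06) and 1.30 after median-of-ratios scaling.

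The paralogues of TEAD1 bind the same letters and were not called as deposited. TEAD2 was at 14.3 ± 0.705 TPM in Ctrl and 15.2 ± 0.725 in rhLUM, TEAD4 at 9.85 ± 0.317 and 9.27 ± 0.660, and TEAD3 at 3.42 ± 0.422 and 3.63 ± 0.0473. The 95% intervals of their log2 differences were -0.06 to 0.22 for TEAD2, -0.17 to 0.31 for TEAD3 and -0.24 to 0.08 for TEAD4. After median-of-ratios scaling the values of TEAD2 and TEAD3 turned to -0.11 and -0.085 without a call, and TEAD4 stood at -0.26 and was called lower (adjusted p = 0.0111, within 0.00672 to 0.664 over its alternatives).

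TEAD1 made up 23.7%, 24.3% and 23.2% of the summed TEAD TPM in Ctrl A, B and C, and 47.5%, 49.2% and 46.7% in rhLUM A, B and C. TEAD2 had been the most abundant TEAD transcript in Ctrl, at 39.6 ± 0.980% of the sum, and stood at 28.2 ± 0.836% with rhLUM. TEAD1 was thus the most abundant in each rhLUM library. The sum over TEAD1 to TEAD4 went from 36.2 ± 1.198 to 53.9 ± 1.193 TPM. Set against the summed coactivators, it was 0.415 ± 0.0109 in Ctrl and 0.443 ± 0.0174 in rhLUM.

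**Figure D2:**
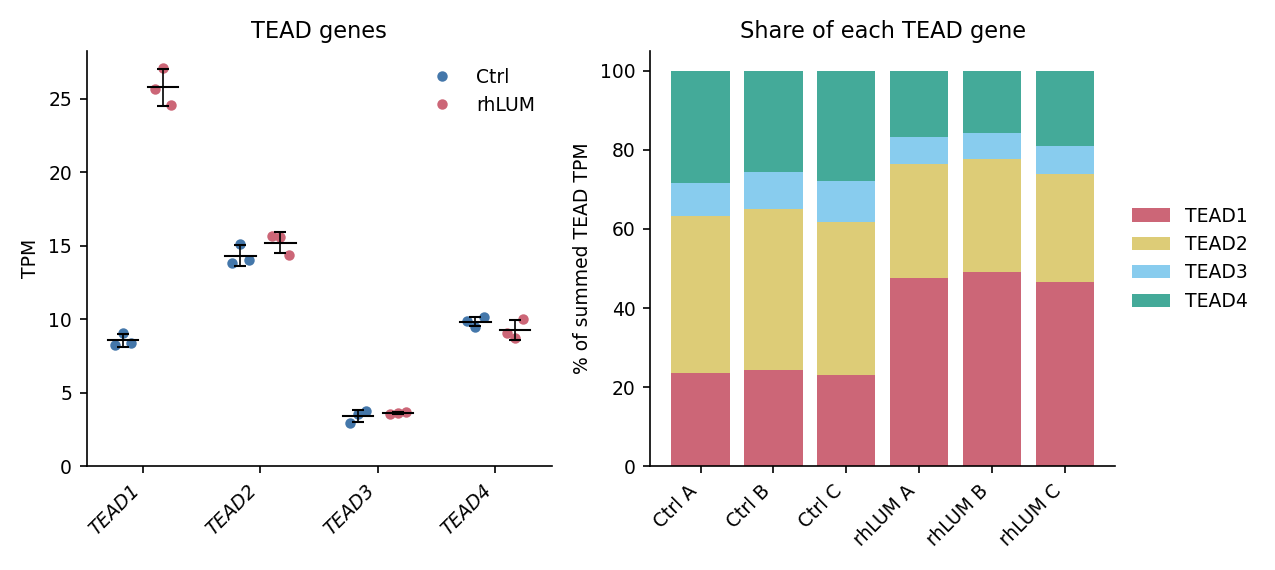
Left, TPM of TEAD1 to TEAD4 by library, with group means and SD (n = 3); right, each gene's share of the summed TEAD TPM in each library. TEAD1 stands at 8.26 to 9.07 TPM in Ctrl and 24.57 to 27.07 in rhLUM, while the groups of the other genes overlap.

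CTGF and CYR61 encode related secreted matricellular proteins that bind integrins, and both are standard readouts of YAP and TEAD activity. They went opposite ways. CTGF (chromosome 6, 131948176 to 131951373, minus strand) was at 19.66, 20.24 and 19.13 TPM in Ctrl and at 29.73, 31.19 and 30.19 TPM in rhLUM. Its groups did not overlap, and its log2 difference was 0.60 (SE 0.043, limma adjusted p = 1.79e-05), with 0.41 after median-of-ratios scaling and 0.50 after the length and GC correction.

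CYR61 (chromosome 1, 85580761 to 85583962, plus strand) was at 10.15, 10.00 and 10.23 TPM in Ctrl and at 7.02, 7.70 and 6.00 TPM in rhLUM. Every rhLUM library lay below every Ctrl library, and the rhLUM libraries were more spread. The log2 difference was -0.50 (SE 0.088, 95% interval -0.71 to -0.29, limma adjusted p = 0.00184), with -0.68 after median-of-ratios scaling. The call held under each alternative run (adjusted p up to 0.00868). Both genes have short transcripts of similar length, 2339 bases for CTGF and 2290 for CYR61.

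The ratio of CTGF to CYR61 was 1.94, 2.02 and 1.87 in Ctrl A, B and C and 4.24, 4.05 and 5.03 in rhLUM A, B and C. It therefore more than doubled (log2 difference of the mean ratios 1.19) with no overlap between groups. CYR61 is also an immediate early gene, induced within minutes by serum or by tissue handling. Of 9 immediate early genes 7 fell, against 22.3% of all tested genes, and 1, FOSB, rose (log2 difference 0.25). The call of FOSB was lost after median-of-ratios scaling (0.068), under which 8 of the 9 fell, against 32.5% of all genes. It was also lost after upper quartile scaling (limma adjusted p = 0.711) and the length and GC correction (0.247). Rescaling without mitochondrial genes (0.133) and no filter on low values (0.0565) lost it too. So did leaving out Ctrl A (limma adjusted p = 0.0658), Ctrl B (0.0788), rhLUM A (0.0767) or rhLUM B (0.0557). The list's summed level was 806.4 to 836.1 TPM in Ctrl and 368.3 to 376.3 in rhLUM. DUSP1, a phosphatase of MAP kinases, had a log2 difference of -2.00 and FOS, a subunit of AP-1, of -1.76. The part of these genes' shift in the value of CYR61 was not tested.

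**Figure D3:**
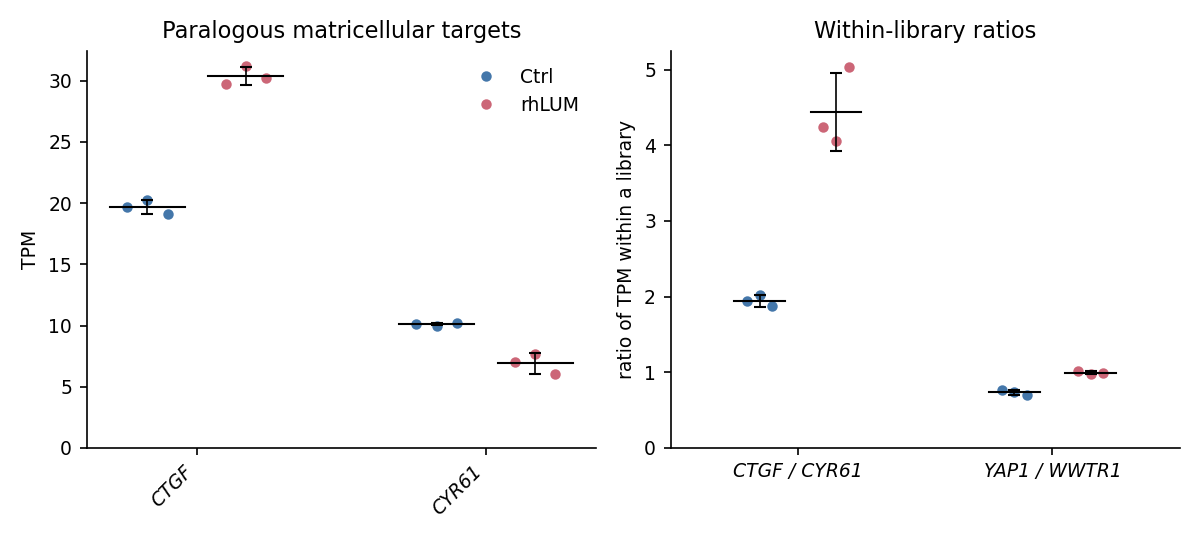
Left, TPM of CTGF and CYR61 by library; right, the ratios of CTGF to CYR61 and of YAP1 to WWTR1 within each library. Points are libraries (Ctrl blue, rhLUM red), with means and SD (n = 3). CTGF is higher and CYR61 lower with rhLUM, and the ratio goes from 1.87 to 2.02 in Ctrl to 4.05 to 5.03 in rhLUM.

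AXL, a receptor tyrosine kinase of the TAM family whose ligand is GAS6 (chromosome 19, 41219203 to 41261766, plus strand), was low in Ctrl, at 0.45, 0.39 and 0.53 TPM. It was at 2.57, 2.45 and 2.10 TPM with rhLUM, a 5.197-fold difference of the mean TPM between groups that did not overlap. On the log2 scale the difference was 1.21 (SE 0.14, limma adjusted p = 2.32e-04). Since AXL was admitted by its rhLUM libraries alone, a difference is built into its selection; with a minimum mean of 0.1 TPM, chosen after seeing the data, the adjusted p was 1.21e-04. The ratio of AXL to YAP1 was 0.0124 ± 0.00217 in Ctrl and 0.0391 ± 0.00413 in rhLUM.

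ANKRD1 encodes a stress-responsive ankyrin repeat protein of muscle and is a strong YAP target in many epithelial lines (chromosome 10, 90912096 to 90921276, minus strand). It was near 0 in both groups, at 0.25, 0.27 and 0.29 TPM in Ctrl and at 0.28, 0.18 and 0.23 TPM in rhLUM, and the groups overlapped. It did not pass the filter. With the minimum mean of 0.1 TPM its log2 difference was -0.047 (SE 0.096, limma adjusted p = 0.726). Its promoter carries the TEAD letters 2 times and that of CTGF 3 times, and CTGF stood at 19.13 TPM or more in every library.

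The remaining members restrain YAP or act on the LATS kinases. AJUBA, a LIM domain protein that binds and inhibits LATS kinases (chromosome 14, 22971174 to 22982642, minus strand), was at 11.49, 9.86 and 10.28 TPM in Ctrl and 14.93, 15.34 and 15.94 TPM in rhLUM. Its groups did not overlap. Its log2 difference was 0.51 (SE 0.068, limma adjusted p = 4.22e-04) and was 0.33 after median-of-ratios scaling and 0.29 after the length and GC correction, called in each.

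AMOTL2, an angiomotin that holds YAP at junctions and is itself a YAP target (chromosome 3, 134355874 to 134375479, minus strand), was at 5.72, 5.98 and 6.29 TPM in Ctrl and 7.43, 7.85 and 6.94 TPM in rhLUM. The groups lay apart by less than 1 TPM. The log2 difference was 0.26 (SE 0.073, limma adjusted p = 0.0152). The call was lost after median-of-ratios scaling (0.091, adjusted p = 0.307), upper quartile scaling (0.06, adjusted p = 0.499) and the length and GC correction (0.085, adjusted p = 0.328). It was also lost on rescaling without mitochondrial genes (0.17, adjusted p = 0.0791) and without Ctrl A (adjusted p = 0.0534), within 0.00925 to 0.499 over its alternatives. AMOTL2 made up at least 96.1% of the summed AMOT, AMOTL1 and AMOTL2 TPM in every library.

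LATS2, a kinase that phosphorylates YAP and is also a YAP target (chromosome 13, 20973032 to 21061547, minus strand), was at 1.19, 1.17 and 1.46 TPM in Ctrl and 1.89, 1.87 and 2.39 TPM in rhLUM. The groups did not overlap, at levels near the filter. The log2 difference was 0.42 (SE 0.14, limma adjusted p = 0.0297). The call was lost after median-of-ratios scaling (0.30, adjusted p = 0.0939), upper quartile scaling (adjusted p = 0.115) and the length and GC correction (0.14, adjusted p = 0.374). It was also lost with no filter on low values (adjusted p = 0.0548) and on rescaling without mitochondrial genes (adjusted p = 0.0514). The same held without Ctrl A (adjusted p = 0.0778), Ctrl B (adjusted p = 0.0766) or rhLUM C (adjusted p = 0.0927), within 0.00778 to 0.374 over its alternatives. Its share of the summed LATS1 and LATS2 TPM was 16.5 ± 1.79% in Ctrl and 16.8 ± 1.41% in rhLUM, so the 2 groups overlapped in that share.

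**Figure D4:**
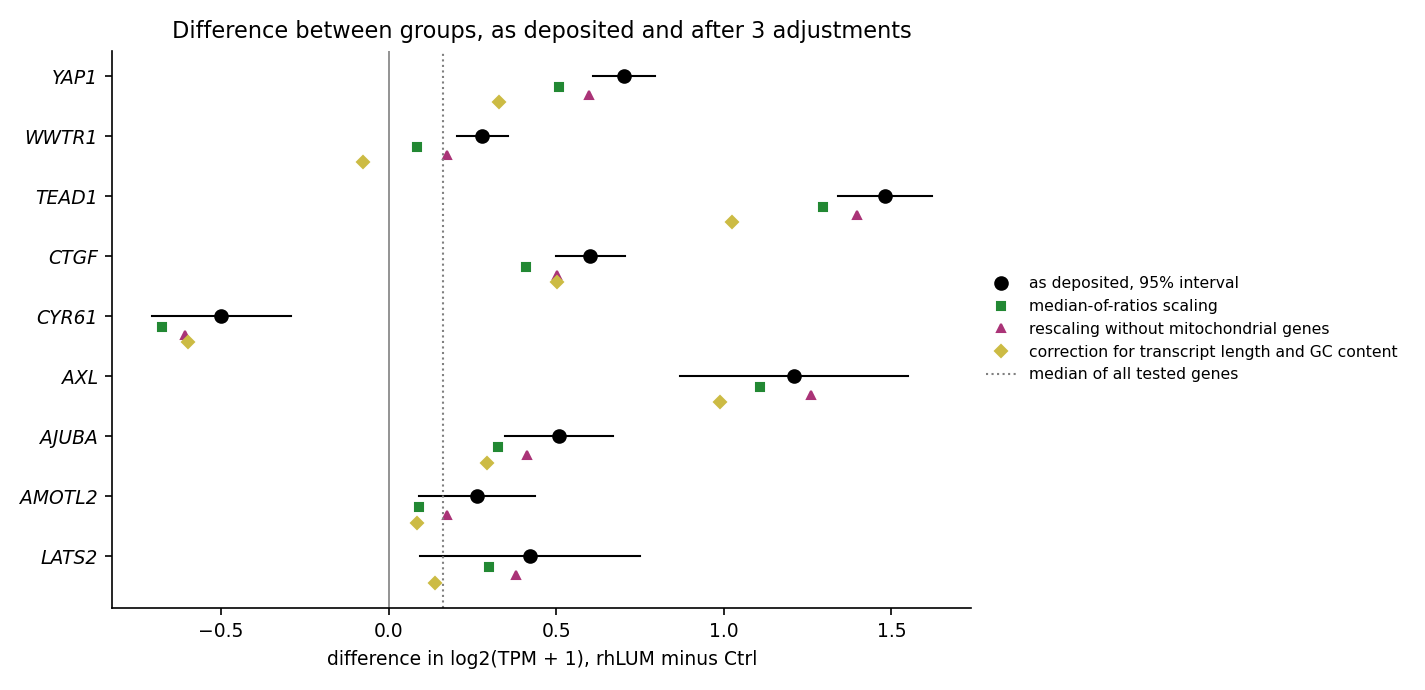
Difference in log2(TPM + 1), rhLUM minus Ctrl, of the 9 tested members as deposited (black, 95% interval) and after 3 adjustments of the values; the dotted line is the median of all tested genes, 0.16. TEAD1, AXL, YAP1, CTGF, AJUBA, AMOTL2 and LATS2 stay above 0 and CYR61 below 0 in each, while WWTR1 crosses 0 after the length and GC correction. AMOTL2 and LATS2 lose their calls in each of the 3 adjustments.

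The other genes of the pathway were read from a list of 29 regulators and partners, of which 22 passed the filter. As deposited 14 were higher and 2 lower, or 72.7% called against 66.8% of all tested genes, with a median of 0.55 against 0.16. Median-of-ratios scaling gave 14 higher and 5 lower of 22, at a median of 0.36. Over all genes that scaling gave 32.6% higher, 32.5% lower (65.1% called) and a median of -0.017. The length and GC correction left 9 higher and 3 lower of 22, at a median of 0.10. Against the 37.1% of all genes higher, 66.5% called and median of 0.052 under that correction, the list is then near or below the background. The rises included NF2, the membrane scaffold merlin that activates LATS kinases, from 4.54 ± 0.348 to 14.1 ± 0.898 TPM (log2 difference 1.45, limma adjusted p = 4.23e-06). STK4 went from 12.6 ± 0.410 to 26.8 ± 0.981 TPM (1.03) and MAP4K4, a kinase that acts beside it, from 43.7 ± 0.691 to 78.2 ± 0.480 (0.82).

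MOB1A, the LATS coactivator, rose by 0.78 on the log2 scale. The atypical cadherin FAT1 rose by 0.51, a call lost after the length and GC correction (0.032, adjusted p = 0.449). SAV1, the scaffold of STK3 and STK4, moved against most of the list, from 23.2 ± 1.88 to 13.6 ± 0.572 TPM (log2 difference -0.73, limma adjusted p = 6.74e-05). TAOK3, a kinase upstream of STK3 and STK4, fell too, by 0.29 on that scale. SAV1 and TAOK3 were lower under each alternative run. After the length and GC correction STK4 stood at 0.62, MAP4K4 at 0.39, MOB1A at 0.43 and TAOK3 at -0.61, each still called.

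VGLL proteins compete with YAP for TEAD or act beside it. VGLL4, a repressor of TEAD, rose from 46.4 ± 1.15 to 74.96 ± 3.14 TPM (log2 difference 0.68, limma adjusted p = 7.97e-06). VGLL3 was below the filter, at 0.23, 0.22 and 0.25 TPM in Ctrl and 1.00, 1.15 and 1.15 TPM in rhLUM, without overlap; VGLL1 was listed at 0 in 5 of 6 libraries.

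Of the published 22-gene signature of YAP and TAZ targets, 16 genes are not among the members, and 12 of them passed the filter. They did not move one way: 5 rose and 5 fell of 12 (83.3% called), where 44.5% of all tested genes rose, 22.3% fell and 66.8% were called. Their median was -0.084, against 0.16 over all tested genes. It was -0.28 with median-of-ratios scaling, against -0.017 over all genes, and -0.37 after the length and GC correction, against 0.052. Under that correction 5 were higher and 7 lower of 12, where 37.1% of all genes were higher and 29.4% lower (66.5% called). NT5E, the ecto-nucleotidase CD73, rose from 56.2 ± 2.30 to 173.5 ± 1.43 TPM (log2 difference 1.61, limma adjusted p = 1.13e-07). The membrane repair protein gene MYOF rose from 41.5 ± 1.896 to 100.2 ± 3.32 TPM (1.25), and PTPN14, a phosphatase that binds YAP, from 1.74 ± 0.0866 to 4.87 ± 0.186 (1.10). TGFB2, a ligand of the TGF-beta receptors, was 0.78 higher and CRIM1 0.53 higher on the log2 scale, and after the length and GC correction these were 0.42 and 0.16, with PTPN14 at 0.61, all still called.

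IGFBP3, a secreted binding protein of insulin-like growth factors and the most abundant gene of that list, fell from 1204 ± 8.77 to 522.0 ± 10.5 TPM (log2 difference -1.20, limma adjusted p = 2.74e-08). F3, tissue factor, fell from 53.1 ± 1.35 to 22.4 ± 1.27 TPM (-1.21). CCDC80 (-0.67), GADD45A (-0.42) and DOCK5 (-0.24), named after their values were seen, fell as well. The call of DOCK5 was lost without Ctrl B (adjusted p = 0.106), Ctrl C (adjusted p = 0.0551) or rhLUM A (adjusted p = 0.0889). It was also lost with no filter on low values (adjusted p = 0.0738) and without the variance trend (adjusted p = 0.0513). The length and GC correction put CCDC80 at -1.17 and DOCK5 at -0.72. With median-of-ratios scaling the signature counts were 5 higher and 6 lower of 12. Of all genes 32.6% were then higher and 32.5% lower (65.1% called).

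**Figure D5:**
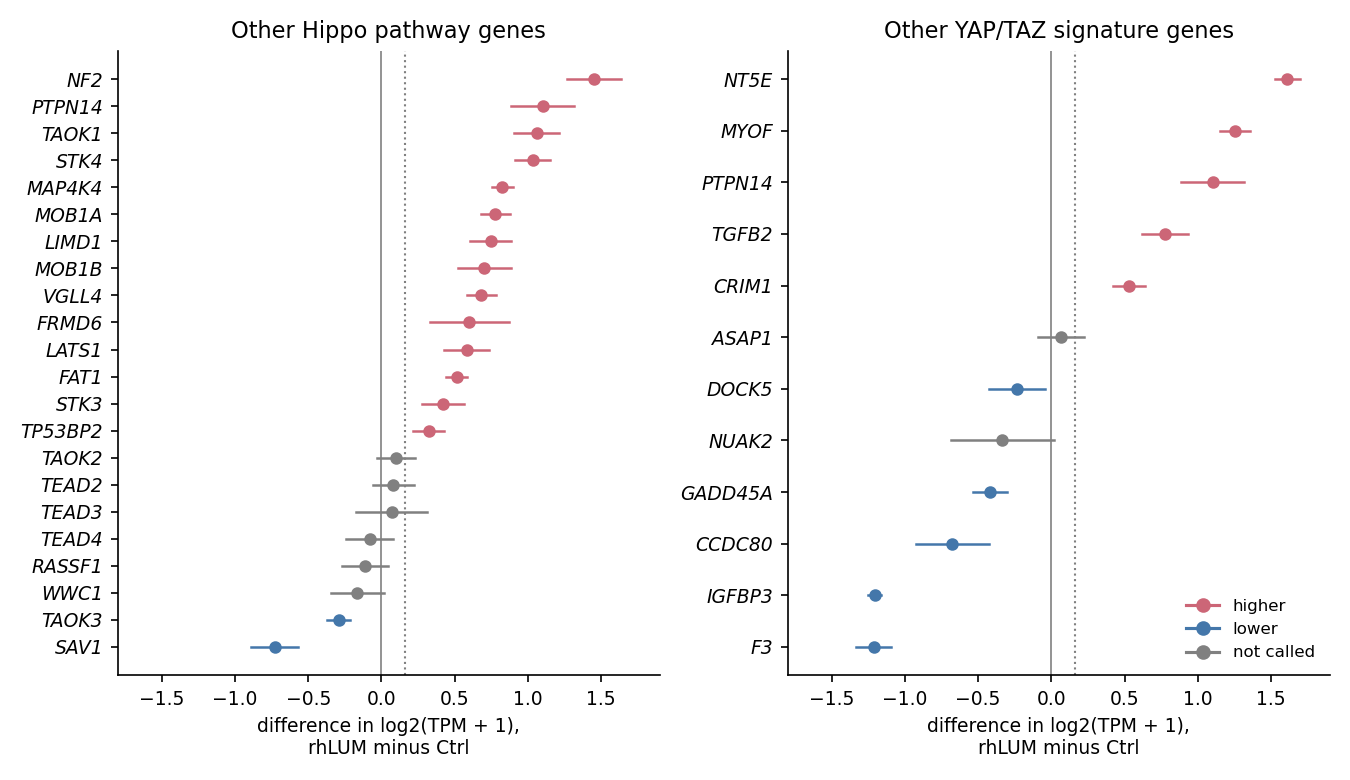
Difference in log2(TPM + 1), rhLUM minus Ctrl, with 95% interval, of 22 tested Hippo pathway genes (left) and 12 tested signature genes (right; PTPN14 is in both). Colour gives the call at an adjusted p under 0.05 and the dotted line the median of all tested genes. Most pathway genes lie above 0, while signature genes lie on both sides, from -1.21 (F3) to 1.61 (NT5E).

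Position in the genome did not group the members: the 10 lie on 8 chromosomes, with YAP1 and TEAD1 far apart on chromosome 11 and WWTR1 and AMOTL2 on chromosome 3. Among 10 tested protein-coding genes that start within 2 Mb of YAP1, 3 rose and 6 fell, at a median of -0.29, and 2 had a larger difference than YAP1. Around TEAD1, 10 of 14 rose and 1 fell, at a median of 0.47, and 1 exceeded TEAD1. Around WWTR1, 14 of 16 were higher with a median of 0.43, and 12 exceeded WWTR1. All 15 neighbours of CYR61 stood above it, 11 called higher and 1 lower, at a median of 0.31. Over all tested genes, protein-coding or not, 44.5% were called higher and 22.3% lower, with a median of 0.16.

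The genes most like YAP1 across the 6 libraries, by root mean square difference of centred log2(TPM + 1) among 11661 protein-coding genes, were RHOBTB3 (0.0144), UBA1 (0.0146) and LYSMD3 (0.0155). RHOBTB3 went from 15.7 ± 0.277 to 26.1 ± 0.660 TPM. For CYR61 they were BOLA1 (0.0228), OAF (0.0275) and TRAPPC5 (0.0429), and BOLA1 went from 30.8 ± 0.845 to 21.6 ± 2.40 TPM. With 6 libraries in 2 groups, this likeness reflects mainly the difference between groups.

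Fibroblasts and endothelium express several members strongly, so their markers were read in the same libraries. In a xenograft such cells, and leukocytes, come mainly from the host, while the processing notes name only a human genome. A host transcript is then seen only where it resembles a human one. Low or level values of these markers therefore cannot show how much host tissue was present, or whether it differed between groups. The 9 fibroblast markers summed to 24.65 to 26.35 TPM in Ctrl and 22.52 to 26.69 in rhLUM, with 2 of 5 tested markers higher and 1 lower. That is 60% called, against 66.8% of all tested genes. The one that fell, DCN, went from 7.96 ± 0.351 to 1.26 ± 0.316 TPM (log2 difference -1.99, limma adjusted p = 8.2e-06), COL1A1 was 0.51 higher on the log2 scale, and PDGFRA and THY1 at 0.03 TPM or less in each library. The 5 endothelial markers summed to 21.64 to 23.01 and 26.94 to 31.76 TPM, with 1 of 3 tested higher, PECAM1, and 1 lower, CDH5. These are 66.7% called, at the share of all tested genes. CDH5 passed the filter only through its Ctrl libraries, and VWF and TEK were at or below 0.26 TPM. The 6 leukocyte markers summed to 213.4 to 215.4 and 297.8 to 301.2 TPM, nearly all from LYZ and CD68, while PTPRC stayed at or below 0.23 TPM. The 6 hepatocellular markers were ALB, AFP, KRT8, KRT18, APOA1 and TTR. They summed to 2274 to 2301 TPM in Ctrl and 4474 to 4500 in rhLUM. The rise was mostly in KRT8 (means of 1060 and 2474 TPM) and ALB (288.7 and 825.4). KRT8, KRT18 and ALB were abundant in each library and APOA1 was at 1.40 TPM or less. Of 5 tested, 4 were called higher (80% called). AFP, at 31.2 ± 2.45 TPM in Ctrl and 28.6 ± 1.95 in rhLUM, was not called. The part of these markers in the members' differences was not tested.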

How the data were processed

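RNA was measured in 6 xenograft libraries, 3 Ctrl and 3 rhLUM. Per the labels' protocols, poly-A RNA was selected and paired reads were sequenced. The submitters' processing notes name STAR 2.7.8, RSEM 1.2.31 and GRCh38; the annotation release, strand use and any removal of mouse reads are not stated there, so a host transcript that resembles a human one can add to a value. The deposited values are TPM for 60725 rows per library, per the file headers. TPM keeps no depth, so the depth is unknown and no counting interval can be given. A total of 2210 rows sharing a symbol were left out.

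Since the unit was TPM, limma 3.58.1 (R 4.3.3) was fitted to log2(TPM + 1) of the 14781 genes averaging 1 TPM or more, with a variance trend and group as the only term (4 residual degrees of freedom), two-sided. It was tested on simulated data. Intervals are 95% intervals of that fit. The length and GC correction subtracted a loess surface (span 0.3) per library, over 12834 genes (86.8%) matched by symbol to GENCODE release 29, with the longest transcript of each gene; locations come from the same release, which may not be the authors'. Pearson's r of log2 values across genes was 0.978 to 0.983 within groups (6 pairs) and 0.928 to 0.935 between them (9 pairs). An exact permutation test of 3 against 3 has a smallest p of 0.1, so single genes were not tested that way. The labels name no batch.

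The members, the lists and the tests were chosen with earlier results of these data known. Named genes were the members, the 6 called genes of smallest p in each further list, all TEAD and VGLL genes, called genes against most of their list, and the 3 genes nearest in profile to YAP1 and CYR61. Marker and immediate early genes, CRIM1 and the other called signature genes, AMOT, AMOTL1 and LATS1 were added after values were seen. Alternatives were other scalings, pseudocounts, filters, a replicate block, no variance trend, the correction above, shared symbols summed and each library left out.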

Additional observations from a re-analysis of the deposited data

How the results depend on the processing

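The number of genes called changed by at most 1.5 times under each of the 17 alternatives for the members (9 as deposited), the pathway list (16) and the signature list (10). Leaving out each library gave 7 to 9, 16 to 17 and 9 to 10. Of 9 tested members, YAP1, TEAD1, CYR61, CTGF, AJUBA and AXL kept direction and call in every alternative that tested them; AXL was not tested with at least 1 TPM in all 6 libraries. WWTR1, AMOTL2 and LATS2 did not, as given with their values. Over all 42 tested genes of the 3 lists, 654 of 713 alternative values kept direction and call, 25 lost the call, 17 gained it and 17 changed sign.

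The values that changed sign were these. WWTR1 went to -0.077 after the length and GC correction. TEAD2 was -0.106, -0.14 and -0.021 with median-of-ratios scaling, upper quartile scaling and rescaling without mitochondrial genes; in the same order TEAD3 was -0.085, -0.114 and -0.015, TAOK2 -0.087, -0.122 and -0.002, and ASAP1 -0.13, -0.166 and -0.041. After the length and GC correction TEAD3 was -0.006, TAOK2 -0.006 and ASAP1 -0.343, a call. Leaving out each library put TEAD3 between -0.01 (without Ctrl A) and 0.124. The cause was not tested.

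Deviations from the group means of same-lettered libraries correlated at r = 0.029 (A), -0.023 (B) and 0.084 (C), and not every library correlated best with its own letter. From 3 libraries per group, this cannot tell whether the letters pair the samples. With the letter as a replicate block 9 members, 16 pathway genes and 10 signature genes were called, and 9648 genes in all against 9870. The minimum mean of 0.1 TPM was chosen after seeing the data and gave 9 calls of 10 tested, 18 of 25 and 10 of 14, where 47.9% of all genes were called. Depth is unknown, and differences of genes near 1 TPM (LATS2, AXL, NUAK2) are known less precisely, with SEs of 0.14, 0.14 and 0.15.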

Other observations

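Among the signature genes that are not members, RefSeq promoters (GRCh38.p14, 300 bases) were matched for 11 of 16. The TEAD letters GGAATG or CATTCC were found in 4: PTPN14, NUAK2, TGFB2 and FOXF2, against 14.0% of all promoters of that length. NUAK2 held them 2 times, at -197 and -18 from its start site. It stood at 2.25 ± 0.185 TPM in Ctrl and 1.59 ± 0.367 in rhLUM. That difference was not called as deposited (log2 difference -0.33, limma adjusted p = 0.083), and was called under 6 of its 17 alternatives. PTPN14 and TGFB2, with 1 match each, rose. FOXF2 stood at 0.03 TPM or less in each library and was not tested. F3, which fell, held the AP-1 letters TGANTCA 2 times, at -223 and -210, and was the only 1 of the 11 to hold them. Of all promoters 7.71% held these letters at least once and 0.515% held them 2 or more times. NT5E, MYOF, IGFBP3, CCDC80, FJX1 and RBMS3 held none of the 3 motifs in this window. These are matches of letters and say nothing of binding.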
